A study of Mus musculus with 6 samples.

Results

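Crypt base stem cell genes were followed in the duodenum of control mice and of mice with an intestine-specific Nkx2.2 mutation. The set holds 10 genes, Lgr5, Ascl2, Olfm4, Smoc2, Axin2, Sox9, Rnf43, Tnfrsf19, Igfbp4 and Rgmb, chosen by symbol as stem cell markers and Wnt targets of the crypt base. All 10 were found among the 23026 gene symbols used. RNA came from the 2 cm of duodenum next to the stomach of 6-week-old mice of mixed background, 3 controls and 3 mutants. Control 1 carried Nkx2.2flox/+ with Rosa26Tomato/+, control 2 carried Rosa26Tomato/+ alone, and control 3 was WT. Mutants 1 and 3 carried Nkx2.2flox/SD, Villin-Cre/+ and Rosa26Tomato/+, and mutant 2 carried the same Nkx2.2 and Cre alleles without the reporter. Villin-Cre is known to be active in the intestinal epithelium, crypts included, and is meant to remove the floxed copy there, while other cells of the mutants keep one floxed and one SD allele. The removal was not measured here. Every mutant carried Cre and an SD allele and no control carried either, so their contributions cannot be told apart. The 6 libraries were taken as 6 mice, since no 2 share both their genotype and their sex-linked gene levels. The labels name no animals, and p-values measure only the spread between these libraries. Nkx2.2 is a transcription factor known for its part in forming enteroendocrine cells. Estimated depth ran from 19.1 to 22.9 M reads per library (M, mega).

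Stem cells at the base of each intestinal crypt divide throughout life and renew the epithelium. Wnt ligands from Paneth cells and from the stroma, amplified by R-spondins, keep beta-catenin active in them. Beta-catenin with TCF factors then switches on genes of the stem cell state and genes that dampen the signal again. The whole wall of the duodenum was profiled, so fewer stem cells and less RNA per stem cell cannot be told apart, and several of the 10 genes are known from stromal, nerve or blood cells too.

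None of the 10 stem cell genes differed between mutants and controls beyond the spread between mice. Levels are FPKM, fragments per kilobase of transcript, scaled to the mapped reads of the library. Changes are log2 differences, mutant minus control, on log2(FPKM + 0.1), from limma fitted on the 14642 genes whose mean reached 0.2 FPKM. All 10 genes passed that minimum. At a Benjamini-Hochberg adjusted p under 0.05 limma called 0 of the 10, and 0% of all genes tested. At an unadjusted p under 0.05 limma had 0 of the 10, against 2.84% of all genes (1.98% higher and 0.861% lower in mutants), and limma-voom on estimated reads also called 0. Control and mutant values overlapped for all 10, whereas they did not overlap for 7.57% of all genes. By log2 change 6 of the 10 were lower and 4 higher in mutants, with 48.8% of all genes lower. Their median log2 change was -0.05, against 0.0042 over all genes tested. The 95% intervals of the 10 changes lay between -0.83 and 0.68, so a 2-fold change in either direction was outside the interval of each gene. That held for 88.3% of all genes. A 1.5-fold change was outside the interval for 7 of the 10, against 65.1% of all genes.

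**Figure D1:**
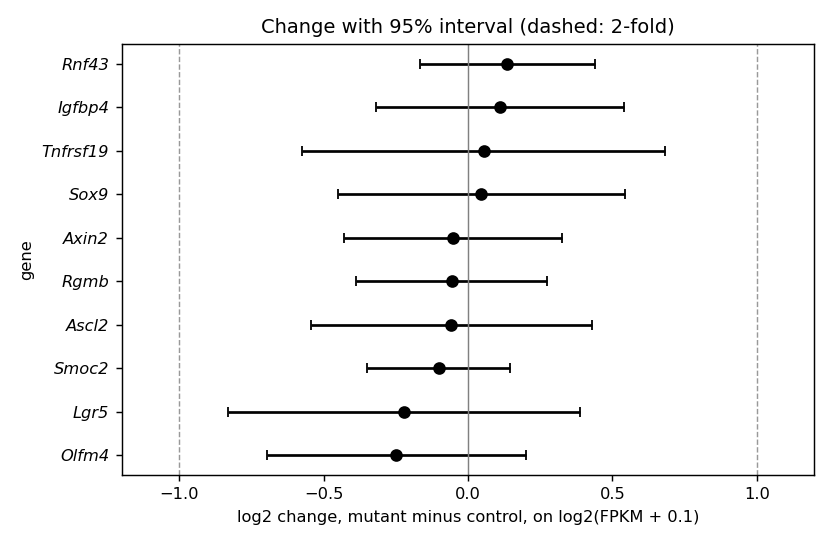
Log2 change of each gene, mutant minus control, on log2(FPKM + 0.1) (horizontal axis), with the 95% limma interval as a bar, and 2-fold changes as dashed lines. Every interval includes 0, and none reaches 2-fold.

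Lgr5, the R-spondin receptor that marks the crypt base columnar stem cell, was at 2.66, 1.59 and 2.17 FPKM in controls 1 to 3 and at 1.28, 2.01 and 2.18 FPKM in the mutant mice 1 to 3. Mutant 1 was the lowest and control 1 the highest, and mutants 2 and 3 lay among the controls. The means were 2.14 ± 0.536 FPKM in the control mice and 1.83 ± 0.480 FPKM in the mutant mice (SD, n = 3 each). The log2 change was -0.22 (SE 0.26; 95% interval -0.83 to 0.39; limma adjusted p = 1.0), on an estimated 110 to 256 reads per library. Leaving out single mice moved it widely: it was 0.0016 without mutant 1, -0.06 without control 1, -0.41 without control 2 and -0.36 without mutant 3. Lgr5 is a gene of 137467 bases on chromosome 10 (mm9, 114887370 to 115024836, minus strand), and its level is that of its 1 RefSeq transcript in the files, NM_010195.

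Rnf43, a ubiquitin ligase that removes Frizzled receptors and so limits the Wnt signal, was at 15.9, 15.7 and 16.9 FPKM in the control mice and at 14.7, 19.5 and 19.6 FPKM in the mutant mice 1 to 3. The controls lay close together. Mutant 1 was below all of them, and mutants 2 and 3 were above all of them. The log2 change was 0.14 (SE 0.13; 95% interval -0.17 to 0.44; limma adjusted p = 1.0). Without mutant 1 it was 0.27 at an unadjusted p of 0.033 and an adjusted p of 1.0 in limma, and it was 0.07 without mutant 2 and 0.07 without mutant 3. Axin2, a scaffold of the complex that destroys beta-catenin and a general Wnt target, was at 13.6, 9.45 and 10.2 FPKM in the control mice and at 9.40, 11.9 and 10.5 FPKM in the mutant mice. Control 1 stood above the other 5 libraries, which spread over both groups. Its log2 change was -0.05 (SE 0.16; 95% interval -0.43 to 0.32). The ratio of Rnf43 to Axin2 levels, both feedback inhibitors, was 1.17, 1.66 and 1.66 in controls and 1.57, 1.64 and 1.87 in mutants. By an exact permutation test, two-sided, the groups gave p = 0.6 for this ratio (n = 3 each), where 3 against 3 cannot give less than 0.1. Both genes lie on chromosome 11 of mm9, Rnf43 at 87476589 to 87549041 and Axin2 at 108781663 to 108812095, on the plus strand.

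Tnfrsf19, also called Troy, is a receptor of the TNF receptor family and a Wnt target of crypt base cells. It had the lowest level of the set, with 1.75, 1.01 and 1.87 FPKM in the control mice and 1.44, 1.31 and 1.98 FPKM in the mutant mice. Control 2 was the lowest library and mutant 3 the highest. The log2 change was 0.05 (SE 0.27; 95% interval -0.58 to 0.68), on an estimated 80 to 184 reads. It was the 1 gene of the set with more than 1 RefSeq transcript in the files, and these begin at separate starts on chromosome 14 of mm9, on the minus strand. NM_001164155, of 4036 bases, spans 61582671 to 61656824, and NM_013869, of 4639 bases, spans 61582671 to 61665692. The starts are 8868 bases apart in the files, and so are 2 RefSeq promoter windows of Tnfrsf19 on GRCm38.p6. These windows are printed because each start has its own measured level. Each runs from 250 bases before to 50 bases after the start, 5′ to 3′ on the minus strand. The outer one is chr14:61046806-61047105 and the inner one chr14:61037938-61038237. Capitals mark ATCAAAG, the reverse complement of the TCF motif CTTTGAT.
Outer start: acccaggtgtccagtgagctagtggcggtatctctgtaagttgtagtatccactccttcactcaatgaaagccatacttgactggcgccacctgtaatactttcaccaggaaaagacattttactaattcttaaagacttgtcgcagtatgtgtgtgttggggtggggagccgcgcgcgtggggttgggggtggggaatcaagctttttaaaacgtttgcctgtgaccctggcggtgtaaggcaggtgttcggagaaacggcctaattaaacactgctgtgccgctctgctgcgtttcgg
Inner start: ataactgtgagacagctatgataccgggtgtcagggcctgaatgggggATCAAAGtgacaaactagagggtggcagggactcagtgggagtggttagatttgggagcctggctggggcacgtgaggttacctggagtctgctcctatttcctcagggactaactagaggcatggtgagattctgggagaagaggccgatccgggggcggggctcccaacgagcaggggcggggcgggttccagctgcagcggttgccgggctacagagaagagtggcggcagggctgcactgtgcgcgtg

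The transcript from the inner start, NM_001164155, carried most of the Tnfrsf19 level in every library. It was at 1.54, 0.673 and 1.40 FPKM in the control mice and at 1.35, 1.10 and 1.26 FPKM in the mutant mice, which is 63.4% to 93.9% of the gene. The transcript from the outer start was at 0.212, 0.340 and 0.469 FPKM in the control mice and at 0.087, 0.213 and 0.726 FPKM in the mutant mice. Its lowest and highest values were both in mutants, mutant 1 with an estimated 7.4 reads and mutant 3 with 73.7. The log2 changes were 0.11 (SE 0.33) for the inner and -0.23 (SE 0.63) for the outer transcript, on the log2(FPKM + 0.1) scale. Limma on all isoforms called neither, nor any of the 11 isoforms of the set (0 of 11, against 0.0279% of all isoforms tested). How reads shared by both transcripts were divided was decided by the authors' processing, so the split is less certain than the sum. Of the 11 promoter windows of 7 members in the RefSeq table (build GRCm38.p6), this was the 1 window with CTTTGAT or CTTTGAA on either strand. The 7 members are Ascl2, Olfm4, Axin2, Rnf43, Tnfrsf19, Igfbp4 and Rgmb. Among all 32851 windows of that length 3.73% hold CTTTGAT and 8.65% hold either motif. The motifs share their first 6 letters, and 1 position can match only 1 of them on a strand.

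**Figure D2:**
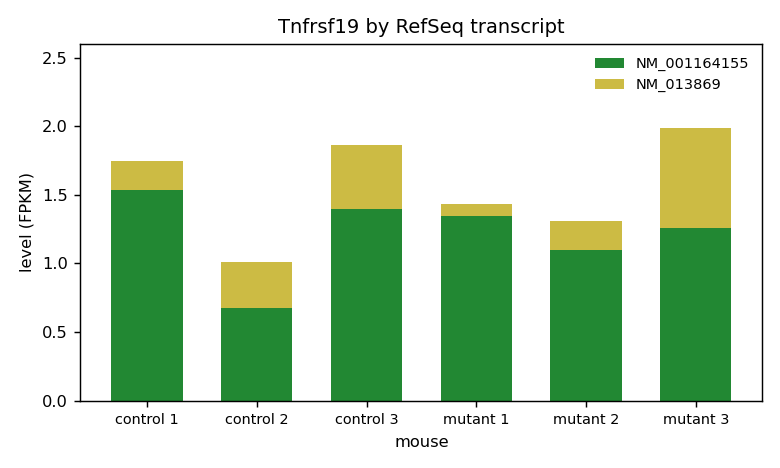
Level of Tnfrsf19 in FPKM (vertical axis) in each of the 6 mice (horizontal axis), stacked by RefSeq transcript. NM_001164155, from the inner start, is the larger part of every bar, and NM_013869 runs from 0.087 FPKM in mutant 1 to 0.726 FPKM in mutant 3.

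The transcription factors of the set were at low to moderate levels. Ascl2, a bHLH factor that maintains the Lgr5 stem cell state, was at 3.73, 2.44 and 3.22 FPKM in the control mice and at 2.39, 3.54 and 3.05 FPKM in the mutant mice. Control 2 and mutant 1 were the 2 low libraries, and the other 4 spread over both groups. The log2 change was -0.06 (SE 0.21; 95% interval -0.54 to 0.43), on an estimated 64 to 112 reads. Sox9, an HMG box factor of crypt cells that Paneth cell formation needs, was at 6.01, 4.66 and 5.52 FPKM in the control mice and at 6.22, 6.81 and 4.01 FPKM in the mutant mice. Mutant 2 was the highest of all 6 libraries and mutant 3 the lowest. The log2 change of Sox9 was 0.05 (SE 0.21; 95% interval -0.45 to 0.54). On mm9 Ascl2 spans 2443 bases of chromosome 7 (150152727 to 150155169, minus strand), and Sox9 lies on chromosome 11 (112643524 to 112649071, plus strand).

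Olfm4 encodes olfactomedin 4, a secreted glycoprotein abundant in crypt base columnar cells. It was at 353, 207 and 253 FPKM in the control mice and at 248, 210 and 212 FPKM in the mutant mice. Control 1 was far above the rest, and all 3 mutants lay within the range of controls 2 and 3. The means were 271 ± 74.8 FPKM and 223 ± 21.4 FPKM, a log2 change of -0.25 (SE 0.19; 95% interval -0.70 to 0.20; limma adjusted p = 1.0). Olfm4 had the smallest unadjusted p of the set, 0.233, in the limma fit. Without control 2 the log2 change was -0.43 at an unadjusted p of 0.042 and an adjusted p of 1.0 in limma. Without control 1 it was -0.04 to 2 decimals.

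Smoc2, a secreted matrix protein, was at 35.7, 30.8 and 39.2 FPKM in the control mice and at 32.1, 33.5 and 32.4 FPKM in the mutant mice. The mutants lay close together, between the controls. Its log2 change was -0.10 (SE 0.10; 95% interval -0.35 to 0.15), the narrowest interval of the set. It was -0.20 without control 2 and -0.02 without control 3. Igfbp4, which binds insulin-like growth factors and is also made by stromal cells, was at 45.9, 30.4 and 49.1 FPKM in the control mice and at 40.9, 44.0 and 48.0 FPKM in the mutant mice. Control 2 stood below the other 5 libraries. The log2 change of Igfbp4 was 0.11 (SE 0.18; 95% interval -0.32 to 0.54), and without control 2 it was -0.10. Olfm4 lies on chromosome 14 (80400109 to 80421737), Smoc2 on chromosome 17 (14416513 to 14541797) and Igfbp4 on chromosome 11 (98902574 to 98913957), all on the plus strand of mm9.

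Rgmb, a membrane-bound co-receptor for bone morphogenetic proteins that also binds neogenin, was at 11.1, 7.81 and 9.70 FPKM in the control mice and at 8.77, 8.86 and 9.60 FPKM in the mutant mice. The controls spanned a wider range than the mutants, which all lay inside it. The log2 change was -0.06 (SE 0.14; 95% interval -0.39 to 0.28). Rgmb lies on chromosome 17 of mm9 (15943217 to 15963550, minus strand).

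**Figure D3:**
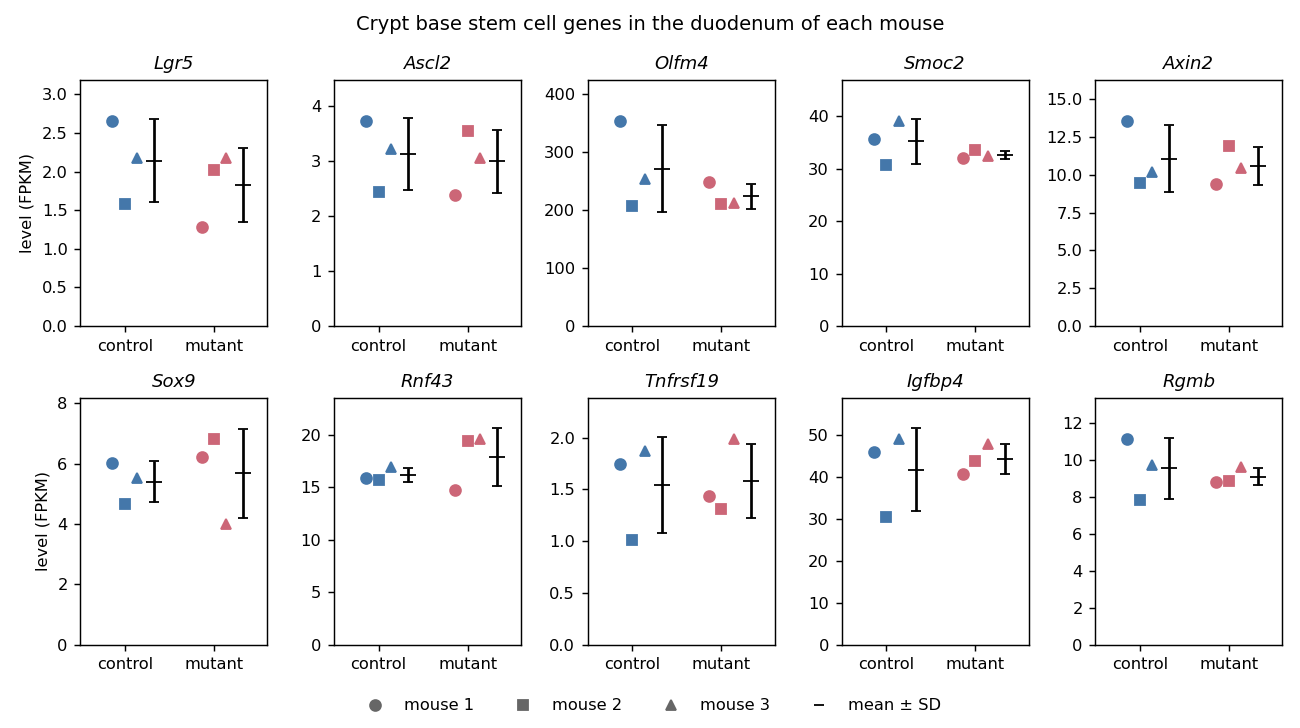
Level of each of the 10 genes in FPKM (vertical axes, each from 0) in the 3 control mice (blue) and 3 mutant mice (red). Circles, squares and triangles are mice 1, 2 and 3 of each group, whose numbers are not known to pair them, and black marks are mean ± SD. The groups overlap for every gene, and the blue square, control 2, is the lowest control in all 10 panels.

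Ranked by their median FPKM over the 6 libraries, a scale that corrects for transcript length, the order was Olfm4, Igfbp4, Smoc2, Rnf43, Axin2, Rgmb, Sox9, Ascl2, Lgr5 and Tnfrsf19. Olfm4 led with a median of 230 FPKM, 5.12 times that of Igfbp4 at 44.9 FPKM, and the 2 ranges did not overlap. Neighbours whose ranges over the 6 libraries overlapped were Igfbp4 and Smoc2, Axin2 and Rgmb, Ascl2 and Lgr5, and Lgr5 and Tnfrsf19. Of these, Axin2 was above Rgmb and Ascl2 above Lgr5 in all 6 libraries. Igfbp4 was above Smoc2 and Lgr5 above Tnfrsf19 in 5 of 6. Lgr5, the most used marker of these cells, was thus the ninth of 10 by level, at a median of 2.09 FPKM. The ratio of Olfm4 to Lgr5 was 133, 131 and 117 in controls and 194, 104 and 97.2 in mutants. Mutant 1 had the lowest Lgr5 and kept an Olfm4 level within the control range, and this ratio gave p = 1 in the exact permutation test (two-sided, n = 3 each).

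Levels of the set varied between mice of the same group. For 9 of the 10 genes the difference of the group means was smaller than the SD of the controls. Control 2 was the lowest of the 3 controls for 10 of 10 genes, whereas it was the lowest for 44.3% of all genes tested. Its median log2 difference from the mean of controls 1 and 3 was -0.45 over the set and -0.08 over all genes. Mutant 1 was the lowest mutant for 7 of the 10 and for 26.8% of all genes, with a median difference from the other mutants of -0.16 over the set and 0.05 over all genes. Over the 6 libraries 41 of the 45 pairs of members had a positive Pearson r of their log2 levels. Between each gene and the mean standardised level of the other 9, r ran from 0.91 for Ascl2 and 0.89 for Rgmb down to 0.22 for Rnf43 and 0.17 for Sox9. These r describe 6 libraries that share their normalization, and genes are not independent replicates.

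Xist was at 0.037 FPKM in control 1 and 0.067 FPKM in mutant 1, and at 17.1 to 21.9 FPKM in the other 4 libraries. The Y-linked gene Ddx3y was at 10.1 and 9.55 FPKM in control 1 and mutant 1, and at most 0.023 FPKM in the others. Each group therefore held 1 male and 2 females. Between the 2 males, mutant 1 was below control 1 for 9 of the 10 stem cell genes (55% of all genes), with a median log2 difference of -0.30 against -0.03 over all genes. Among the 4 females the change was above 0 for 8 of the 10 (56.1% of all genes), with a median of 0.17 against 0.02 over all genes. Control 2, the lowest control for 10 of 10 genes, was 1 of the 2 female controls, and its part in this change was not tested. The difference between these contrasts was not tested, and with 1 mouse per group the first has no replicate check. Control 1 was also the only control with a floxed Nkx2.2 allele, so sex and control genotype cannot be told apart here. Among the females Rnf43 had a log2 change of 0.26 (limma unadjusted p = 0.049, adjusted p = 1.0) and Lgr5 one of 0.17 (adjusted p = 1.0). This comparison was chosen after seeing the data. Control 1 and mutant 1 also had the highest summed level of stomach and Brunner gland genes. Most of it was Tff2, at 4468 FPKM in control 1 and 4535 FPKM in mutant 1. Muc6 and Pgc were also highest in these 2 libraries, while Tff1, Gkn1, Gkn2, Muc5ac and Atp4a were each highest in another library. The summed level of those 8 genes was 4556, 472 and 122 FPKM in the control mice and 4609, 1338 and 358 FPKM in the mutant mice. All 4 that were tested had a log2 change above 0, and Gkn1, Gkn2 and Muc5ac were at 0 in at least 1 library. Their part in the result was not tested.

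Control 2 was also low in several, not all, of the marker lists of other cells. It was the lowest control for 8 of 8 tested Paneth cell markers, 6 of 6 tuft and endocrine markers, 9 of 10 stromal and muscle markers and 6 of 6 neuron and glia markers. The summed Paneth level was 33496, 26432 and 46948 FPKM in the control mice and 39789 to 48620 FPKM in the mutant mice, and 8 of 8 tested had a log2 change above 0 (median 0.17), none at an unadjusted p under 0.05. The smallest p there was that of Ang4, an antimicrobial protein (log2 change 0.37, SE 0.19). For stromal and muscle markers the sums were 492 to 741 FPKM in the control mice and 566 to 669 FPKM in the mutant mice. Proliferation genes did not share the pattern: control 2 was the lowest control for 3 of 12, with a median difference of 0.01. Epithelial genes common to crypt and villus gave 1 of 8 and 0.02, and villus enterocyte markers 1 of 8 and 0.24. Leukocyte and neutrophil markers gave 0 of 6 and 0.06, endothelial markers 4 of 5 and -0.32, and pancreatic acinar genes 7 of 7 and -4.91. In these lists the markers at 0 in at least 1 library were S100a8, Mpo and Ngp and 6 acinar genes. The part of these markers in the level of the stem cell genes was not tested. Of lists nearer to the set, control 2 was the lowest control for 9 of 10 Wnt inhibitors (-0.43) and 13 of 19 other Lgr5 signature genes (-0.25). Reserve and revival stem cell genes gave 5 of 7 (-0.21), Wnt ligands and R-spondins 5 of 10 (-0.29), and Wnt receptors 6 of 10 (-0.18). The IGF pathway gave 7 of 11 (-0.17), Wnt signal transduction 4 of 17 (0.01), other Wnt targets 7 of 13 (-0.01), and the BMP and RGM pathway 9 of 22 (-0.0037). Scaling every library to the epithelial genes turned the direction of none of the 10 stem cell genes.

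**Figure D4:**
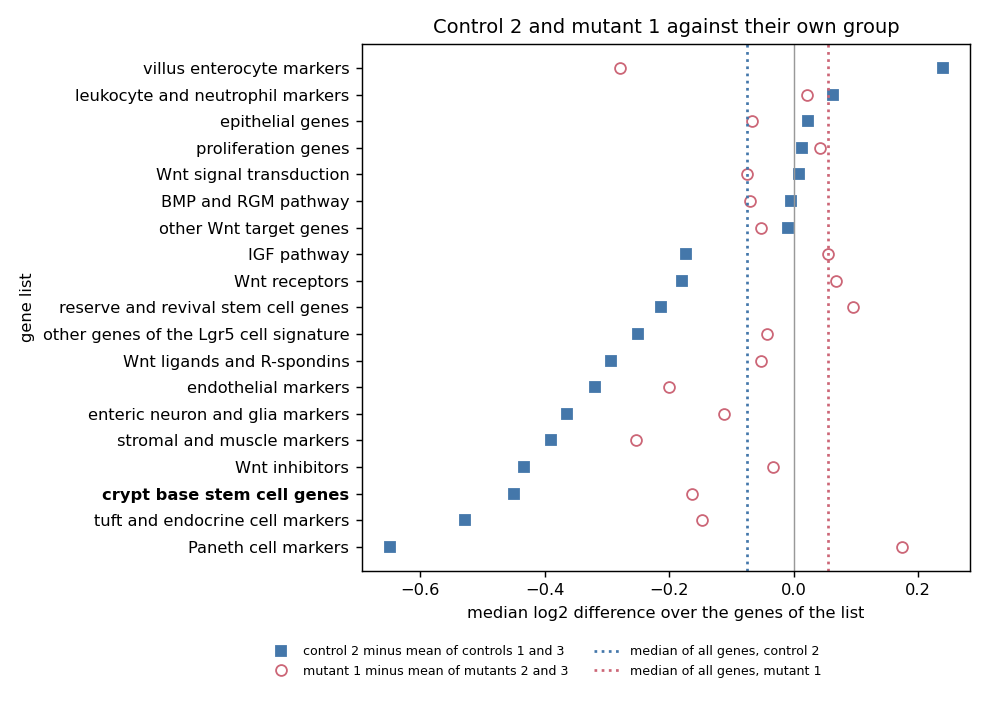
Median log2 difference (horizontal axis) for each gene list shown (vertical axis). Squares are control 2 against the mean of the other controls, and open circles are mutant 1 against the mean of the other mutants. Not drawn are the pancreatic acinar list (-4.91 in control 2, -2.2 in mutant 1) and the stomach and Brunner gland list (-0.76 in control 2, 2.13 in mutant 1). Dotted lines are the medians of all genes, and the crypt base stem cell genes (bold) stand at -0.45 in control 2 and -0.16 in mutant 1.

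The rest of the Wnt pathway was described with lists that hold none of the 10 and share a few genes with each other. No gene of any of them was called at an adjusted p under 0.05, and limma-voom called none in the whole table. Of the Wnt ligands and R-spondins 10 of 12 were tested, 4 higher and 6 lower, with a median log2 change of -0.04 and 0 at an unadjusted p under 0.05. Rspo3, the R-spondin with the highest level here, was at 1.37, 1.56 and 2.28 FPKM in the control mice and at 1.70, 2.48 and 2.16 FPKM in the mutant mice. Its log2 change was 0.28 (SE 0.23). Rspo1 had one of -0.12 (SE 0.44), and Rspo2, at 0.033 to 0.315 FPKM, was below the minimum for testing. Wnt3, the Wnt ligand of Paneth cells, was at 1.22, 0.790 and 0.971 FPKM in the control mice and at 1.05, 1.21 and 1.17 FPKM in the mutant mice, without a difference beyond the spread (log2 change 0.20, SE 0.20). Wnt6 had the smallest p of the list (log2 change -0.49, SE 0.38).

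Among Wnt receptors 10 of 12 were tested. All 10 had a log2 change below 0, against 48.8% of all genes, from -0.30 to -0.01, with 0 at an unadjusted p under 0.05. Fzd4, a Frizzled receptor, had the largest of these changes (SE 0.18). The summed level of the 12 receptors was 86.6 FPKM in control 1 and 69.3 to 74.6 FPKM in the other libraries. Lgr4, the R-spondin receptor found in cells throughout the crypt, was at 24.1, 17.8 and 15.9 FPKM in the control mice and at 17.8, 20.0 and 17.0 FPKM in the mutant mice. It exceeded Lgr5 in every library, by 7.30 to 13.9 times. Of 17 tested genes of signal transduction 5 were higher and 12 lower, with a median of -0.05. The beta-catenin gene Ctnnb1 had a log2 change of -0.04 (SE 0.08), and Apc, part of the destruction complex, had one of -0.24 (SE 0.18). Dvl1, which carries the signal from the receptor, was at 18.4 to 21.2 FPKM in the control mice and at 21.6 to 22.2 FPKM in the mutant mice without overlap (log2 change 0.13, SE 0.09). It was 1 of 17 tested in that list without overlap, against 7.57% of all genes. Of 10 tested inhibitors 4 were higher and 6 lower. Znrf3, the ubiquitin ligase paired with Rnf43, was at 1.09, 0.945 and 1.36 FPKM in the control mice and at 1.37, 1.29 and 1.30 FPKM in the mutant mice (log2 change 0.22, SE 0.18). Other Wnt target genes gave 5 higher and 8 lower of 13 tested, with a median of -0.02.

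Of the other genes of the Lgr5 cell signature 14 of 19 tested were lower and 5 higher, with a median log2 change of -0.06. In limma 1 of the 19 had an unadjusted p under 0.05, against 2.84% of all genes, and the Wnt lists had 0. The gene was Cdca7, linked to DNA methylation, at 26.9, 25.5 and 27.2 FPKM in the control mice and at 30.1, 32.4 and 30.5 FPKM in the mutant mice. All 3 mutants were above all 3 controls, with a log2 change of 0.22 (SE 0.08; unadjusted p = 0.027, adjusted p = 1.0 in limma). In this list 2 of 19 tested genes did not overlap between the groups, against 7.57% of all genes. The other, Msi1, was lower in all 3 mutants than in all 3 controls (log2 change -0.24, SE 0.16). Msi1 was named after its values were seen. Reserve and revival stem cell genes gave 3 higher and 4 lower of 7. Anxa1, a revival stem cell gene, had the smallest p there (log2 change 0.21, SE 0.11). Of 12 proliferation genes 4 were higher and 8 lower, with a median of -0.03 and the smallest p for Rrm2, a nucleotide synthesis gene (log2 change -0.14, SE 0.12).

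In the pathway of Rgmb 11 of 22 tested genes were higher and 11 lower, with a median of -0.0051. Neo1, which encodes neogenin, and Bmp4 had log2 changes of 0.06 (SE 0.14) and 0.0066 (SE 0.11). Bmpr1a, a type I receptor for bone morphogenetic proteins, was at 25.0 to 26.8 FPKM in the control mice and at 22.4 to 23.7 FPKM in the mutant mice without overlap (log2 change -0.15, SE 0.08; limma adjusted p = 1.0). In this list 3 of 22 tested genes did not overlap, against 7.57% of all genes. The others, named after their values were seen, were Bmp5 (log2 change -0.12, SE 0.10) and Bmpr2 (log2 change -0.20, SE 0.12). In the pathway of Igfbp4 4 of 11 tested genes were higher and 7 lower. Stc2, an inhibitor of the protease that cuts Igfbp4, had a log2 change of -0.66 (SE 0.28), with an unadjusted p of 0.053 and an adjusted p of 1.0 in limma.

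Markers of the other cells that express some of the 10 genes gave few differences. Chga, the granule protein of endocrine cells, was at 22.0 to 36.2 FPKM in the control mice and at 13.0 to 18.6 FPKM in the mutant mice (log2 change -0.88, SE 0.21; limma unadjusted p = 0.0038, adjusted p = 1.0). It is the 1 of 6 tuft and endocrine markers, cells that also hold Sox9, with an unadjusted p under 0.05, against 2.84% of all genes. Of the 6, 1 was higher and 5 lower. The endocrine genes Chgb and Neurod1 had log2 changes of -0.16 (SE 0.18) and -0.08 (SE 0.23). Olfm4 is also known from neutrophils, whose part in its level was not tested. Of 6 tested leukocyte and neutrophil markers 3 were higher and 3 lower, with a median log2 change of 0.0068. The neutrophil genes S100a8 and S100a9 were at up to 1.29 and 1.15 FPKM and had log2 changes of opposite sign. S100a8, at 0 in mutant 3, had one of -0.57 (SE 0.90), and S100a9 had one of 0.74 (SE 0.21). Mpo was at 0 in 4 libraries and at most 0.045 FPKM, and Ngp was at 0 in 2 and at most 0.055 FPKM. S100a9 and Cd79a, a B cell gene, were the 2 of 6 with an unadjusted p under 0.05 in limma (0.0093 and 0.032, both with an adjusted p of 1.0), against 2.84% of all genes. The T cell gene Cd3e and the macrophage and Paneth cell gene Lyz2 had log2 changes of -0.04 (SE 0.25) and -0.0089 (SE 0.22). Chgb, Neurod1, S100a8, Cd3e and Lyz2 were named after their values were seen. For the stromal, neuron and glia, endothelial, epithelial and villus lists 0 genes reached an unadjusted p under 0.05. Their smallest p were those of Pdgfra (stroma, log2 change -0.19, SE 0.16), Uchl1 (neurons, log2 change 0.22, SE 0.17), Vwf (endothelium, log2 change -0.67, SE 0.31), Krt18 (epithelium, log2 change 0.15, SE 0.07) and Sis (villus, log2 change -0.24, SE 0.19). In the neighbouring tissues Tff1, a stomach mucosa gene, was at 0.351 to 1.40 FPKM in the control mice and at 1.96 to 2.38 FPKM in the mutant mice (unadjusted p = 0.0059, adjusted p = 1.0 in limma). It was the 1 of 4 tested stomach and Brunner gland genes at an unadjusted p under 0.05, against 2.84% of all genes. It was also the 1 of these 4 without overlap, against 7.57% of all genes. Pancreatic acinar genes were high in control 1, control 3 and mutant 2, with summed levels of 35.4, 20.3 and 37.2 FPKM against at most 0.430 FPKM in the others. Their 7 tested genes had log2 changes below 0, with the smallest p for Cpb1 (log2 change -1.57, SE 0.88), and 6 of them were at 0 in at least 1 library. The targeted gene Nkx2-2 was at 1.07, 0.647 and 0.716 FPKM in the control mice and at 0.564, 0.772 and 0.909 FPKM in the mutant mice, so its total level did not separate the genotypes and does not show the deletion.

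The 5 other genes most like the stem cell set were found among 12297 genes of at least 1 FPKM, by Pearson r over the 6 libraries with the mean standardised level of the 10. They were Tnfrsf13b, a receptor of B cells (r = 0.99), Wdr6 (0.99), Emp3 (0.99), Kmo, an enzyme of tryptophan breakdown (0.98), and Tm6sf1 (0.98). As the highest of 12297 values over 6 libraries these r are a description only. Emp3 was at 19.5, 11.98 and 17.1 FPKM in the control mice and at 13.5, 17.8 and 16.2 FPKM in the mutant mice, with control 2 the lowest and mutant 1 the next.

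The authors' deposited table gives a DESeq comparison on group means of normalized counts from the same libraries. In the authors' deposited table the fold change of mutant over control ran from 0.849 for Olfm4 to 1.10 for Rnf43 over the 10 genes. The smallest unadjusted p of the set in the authors' deposited table was 0.215, and each adjusted p was 1. All 10 signs were those of the limma fit, which uses the same 6 libraries. Over all 18621 genes with an adjusted p in the authors' deposited table, 5 had one under 0.05 by DESeq, none of them in the set.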

How the data were processed

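Per the submitters' processing notes, the authors used CASAVA 1.8.2, TopHat, Cufflinks and DESeq with mouse build mm9. Their settings are not stated in the labels. Per the file headers, each library has deposited FPKM values per gene and per isoform. Coverage, an unscaled signal, is deposited for isoforms beside their length. The authors' deposited series table holds DESeq means of normalized counts (a signal), a ratio, its log2 value and p-values; it has no value per library and only describes.

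Repeated symbols (464 rows) were reduced to the row with the highest mean, and 209 symbols without a successful estimate were left out. Coverage times length less 210.34 bases, divided by 101 bases per read, estimated reads, of which 80.7% to 82.3% per library lay within 0.05 of a whole number in genes with 1 isoform. Reads are estimates, and counting error is only a part of their spread between libraries. Tests used limma (version 3.58.1, R version 4.3.3), two-sided and with a variance trend, on log2(FPKM + 0.1), at an adjusted p under 0.05; this scale understates changes of low genes. It was tested on simulated data for mutant against control over 14642 genes: of 100 genes changed 2-fold it recovered 70, of 100 changed 4-fold 93, with 10 false calls. The changed genes all had a mean of at least 1 FPKM. Spread was drawn for each gene on its own, without shifts shared by a library. These shares therefore do not give the power for lower genes or under shared shifts.

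Members and lists were chosen with earlier results of these data known. Named besides the 10 are listed partners, each list's genes at an unadjusted p under 0.05 or else its smallest p, and the 5 genes most like the set. Genes named after their values were seen are marked as such. Alternatives covered pseudocounts of 1 and 0.01, filters, quantile and epithelial scaling, a replicate block, no trend, limma-voom and leaving out each mouse. No 2 libraries were identical. File starts count from 0 and were raised by 1.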

Additional observations from a re-analysis of the deposited data

How the results depend on the processing

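None of the 10 stem cell genes, and none of their 11 isoforms, was called at an adjusted p under 0.05 under any of the settings run, 16 for genes and 2 for isoforms. Over all genes limma called 0, and 1 with a replicate block. Leaving out 1 mouse at a time gave 0 to 3 calls, the 3 without control 3, and limma-voom, both pseudocounts, the filters, the scalings and no trend gave 0. The replicate numbers are not known to pair the mice: deviations of same-numbered mice correlated at 0.21, 0.05 and 0.22 over 14642 genes, and not every library correlated best with its own number. Olfm4, Smoc2 and Rnf43 kept their direction in all 16 settings, but with 1 mouse left out their log2 changes ran from -0.43 to -0.04, from -0.20 to -0.02 and from 0.07 to 0.27. For the other 7 the direction turned only when mice were left out. The log2 changes with 1 mouse left out, followed by those without both control 1 and mutant 1, were -0.41 to 0.0016 and 0.17 for Lgr5, -0.22 to 0.09 and 0.22 for Ascl2, -0.16 to 0.10 and 0.18 for Axin2, -0.10 to 0.27 and 0.04 for Sox9, -0.21 to 0.21 and 0.21 for Tnfrsf19, -0.10 to 0.24 and 0.25 for Igfbp4, and -0.19 to 0.06 and 0.083 for Rgmb. The same values were -0.18 to 0.12 and 0.13 for Lgr4, -0.61 to 0.24 and 0.21 for Rspo1, -0.066 to 0.13 and 0.11 for Neo1, and -0.23 to 0.10 and 0.27 for Nkx2-2. Bmp4 ran from -0.060 to 0.064, with -0.0033 without both and -0.032 when scaled to epithelial genes. The genes most like the set also turned, but they were picked by their likeness over these same libraries, so this adds no support. Their values were -0.26 to 0.03 and 0.12 for Tnfrsf13b, -0.19 to 0.11 and 0.19 for Wdr6, and -0.22 to 0.13 and 0.24 for Emp3. For Kmo they were -0.21 to 0.13 and 0.18, and for Tm6sf1 -0.34 to 0.16 and 0.22. Leaving out both was chosen after seeing the data. Why these turn was not tested beyond the fewer mice each fit holds. Ascl2, Lgr5 and Tnfrsf19 rest on an estimated 64 to 256 reads per library, which limits their precision.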
